A study of Mus musculus with 7 samples.

Results

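The genes examined were 32 subunits of SAGA and ATAC and paralogs of ATXN7, chosen by symbol as members of these coactivator complexes, out of 52550 genes in the count table. All 32 were found in the table and all 32 passed the filter on low counts, which left 20128 genes for the test. They were grouped by role into 5 genes of the SAGA acetyltransferase module, 8 of the deubiquitinase module with the ATXN7 paralogs, 9 of the SAGA core, 3 of the activator-binding and splicing factor subunits and 7 of ATAC. Total RNA was sequenced from the retinas of 4 WT mice and 3 SCA7 homozygous knock-in mice (SCA7 140Q/140Q), all C57BL/6J and 12.5 weeks old, with both retinas of an animal in a library. Both *Atxn7* alleles of the knock-in mice carry an expanded CAG repeat at the endogenous locus and are driven by the gene's own promoter, so that every retinal cell that expresses *Atxn7* makes only the expanded protein.  The question addressed here is whether the mRNAs of the complex that holds ATXN7, and of the complex most closely related to it, differ between the genotypes.

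SAGA is a large transcriptional coactivator with separate acetyltransferase and deubiquitinase activities. KAT2A (GCN5) or KAT2B (PCAF) acetylates histone H3, mainly at lysine 9, while USP22 removes ubiquitin from histone H2B, and ATXN7 anchors the deubiquitinase module to the rest of the complex. ATAC uses the same acetyltransferases with its own set of partners. In SCA7, an expanded polyglutamine tract in ATXN7 causes degeneration of photoreceptors, cerebellum and brainstem neurons.

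The normal tract of the mouse gene is short. *Atxn7* lies on chromosome 14 from 13961440 to 14107302 (+ strand, GRCm38), and its CAG tract lies in coding sequence of exon 2 of the 12 exons of the longest coding transcript (GENCODE vM21, 6853 nt). The reference sequence at chr14:14013126-14013215 (+ strand) is shown because the knock-in allele differs from it by the length of this tract, and the capitals mark its 5 CAG codons.

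*Atxn7*: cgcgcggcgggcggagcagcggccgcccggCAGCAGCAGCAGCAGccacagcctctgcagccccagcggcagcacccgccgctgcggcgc

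*Kat2b* and *Zzz3* were the members past the fold change limits of the study at an adjusted p under 0.05. The RefSeq windows (GRCm38.p6) from 250 bases before to 50 bases after their annotated starts are therefore shown. They lie at chr17:53566721-53567020 and chr3:152395223-152395522 (both + strand). *Zzz3* has 3 such windows and *Kat2b* has 2, and the one nearest to the start of the gene is given for each. The RefSeq start of the *Kat2b* window lies 110 bases from the start of the gene in GENCODE. The capitals mark a CCAAT box (CCAAT, here on the other strand) in *Kat2b* and a GC box (GGGCGG) in *Zzz3*.

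*Kat2b*: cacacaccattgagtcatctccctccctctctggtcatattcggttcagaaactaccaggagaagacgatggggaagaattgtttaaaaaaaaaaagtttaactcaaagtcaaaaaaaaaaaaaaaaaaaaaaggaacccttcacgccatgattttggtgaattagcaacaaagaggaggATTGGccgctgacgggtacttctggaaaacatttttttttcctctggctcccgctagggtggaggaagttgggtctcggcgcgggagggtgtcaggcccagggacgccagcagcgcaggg

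*Zzz3*: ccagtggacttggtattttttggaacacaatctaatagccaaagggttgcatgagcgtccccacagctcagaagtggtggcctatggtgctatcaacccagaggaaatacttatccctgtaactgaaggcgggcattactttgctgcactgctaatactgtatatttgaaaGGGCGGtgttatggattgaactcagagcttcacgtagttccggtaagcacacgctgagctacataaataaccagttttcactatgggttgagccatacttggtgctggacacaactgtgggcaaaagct

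Neither of these windows held the letters TAATCC, the core of the site of the photoreceptor factor CRX, or TGCTGA, a core of the site of the rod factor NRL, on either strand. Among the 39 windows of the 28 members that had one, TAATCC was found in 1 (*Supt3*) and TGCTGA in 1 (*Yeats2*), against 7.06% and 19.5% of the 32851 windows of all genes. The CCAAT box was found in 7 member windows (37.4% of all windows) and the GC box in 25 (35.7% of all windows). Each string was searched separately on both strands, and each of the windows printed above held a single match, so no matches overlap in them.

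Total counts ran from 59902546 to 74733202 in the WT libraries and from 56497675 to 96635832 in the SCA7 libraries. On the scale of TMM-scaled CPM (counts for each 1e06 counts of the scaled library), rod markers summed to 57600 to 59600 in WT and 14400 to 19100 in SCA7, with 7 of 7 called lower, and 6 of 6 cone markers were lower. Microglial markers summed to 30.9 to 37.2 CPM in WT and 67.5 to 76.0 CPM in SCA7, with 6 of 6 called higher, and 3 of 4 markers of reactive glia were higher. Lens markers, which can enter with the dissection, varied within both genotypes (31.8 to 408 CPM in WT, 21.4 to 635 CPM in SCA7). Pigment epithelium markers, which can enter in the same way, summed to 13.2 to 31.3 CPM in WT and 5.08 to 11.9 CPM in SCA7, with 1 of 3 called lower. Of the other neurons, 4 of 5 bipolar markers were lower (sums of 525 to 632 and 457 to 477 CPM) and 2 of 4 amacrine markers were lower (424 to 509 and 357 to 388 CPM). Horizontal cells had 1 of 3 lower (76.4 to 87.2 and 60.7 to 61.8 CPM) and ganglion cells 1 of 4 (758 to 939 and 666 to 709 CPM). Muller glia had 1 of 4 lower and 1 higher (3200 to 4030 and 2990 to 3140 CPM). Endothelium had 1 of 3 lower and 1 higher (125 to 163 and 174 to 228 CPM). The part of these shifts in the values of the subunits was not tested. In whole retina, fewer cells of a type and less RNA per cell cannot be told apart.

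Of the 32 members, 3 were lower and 5 were higher in SCA7 at an adjusted p under 0.05 (edgeR quasi-likelihood test, Benjamini-Hochberg over all genes tested), and 24 did not pass. Over all genes tested, 14.2% were called lower and 14.2% higher. With the limits of the study in addition, FC (SCA7/WT) under 0.7 or above 1.3, 1 member was lower (*Zzz3*) and 1 was higher (*Kat2b*), against 7.91% of all genes lower and 7.47% higher. All SCA7 libraries lay below all WT libraries for 4 members and above them for 9, against 18.3% and 19.3% of all genes. The members' median log2 fold change was 0.03, with a range from -0.81 to 0.62, beside -0.02 for all genes and 0.02 for all protein-coding genes. The share of members called, 8 of 32, was thus close to that of all genes. With library totals in place of TMM factors the median of all genes rose by 0.19 on the log2 scale, and 1 member was called lower and 18 higher, against 7.43% and 36.2% of all genes.

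**Figure D1:**
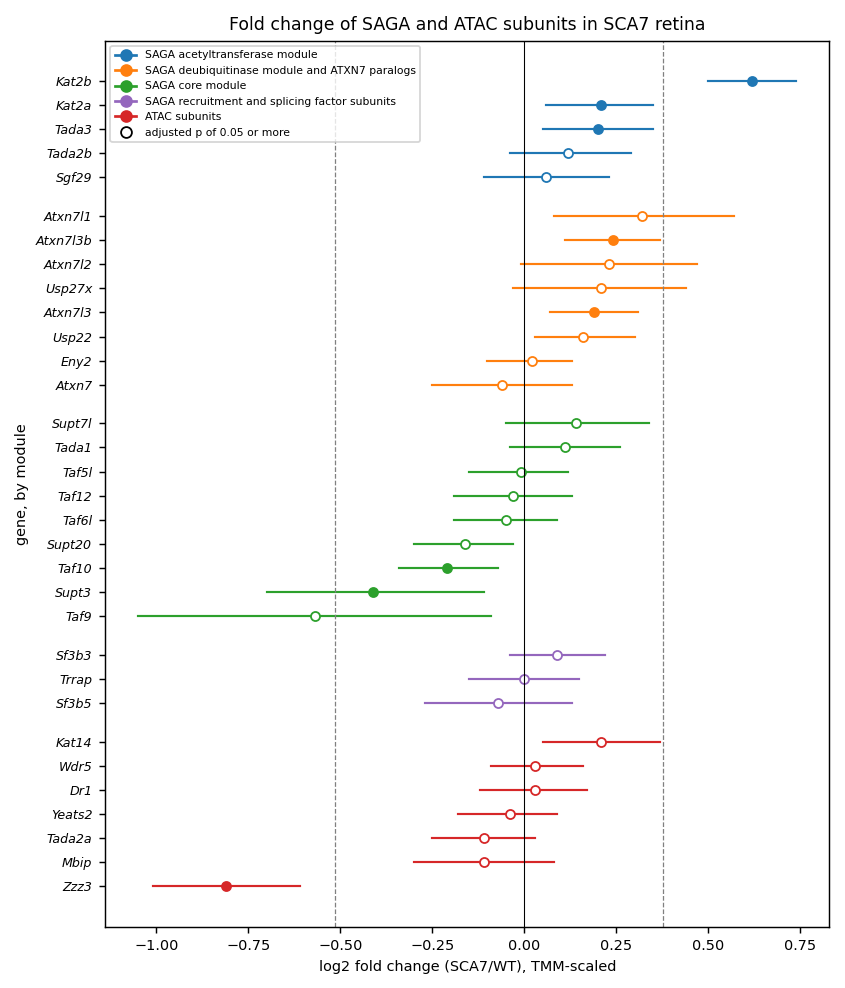
Log2 fold change (SCA7/WT, TMM-scaled) of the 32 members on the x axis, with the 95% confidence interval as a line, grouped by module on the y axis. Filled points passed an adjusted p of 0.05, and the dashed lines mark the FC limits of 0.7 and 1.3. *Kat2b* (0.62) and *Zzz3* (-0.81) lie past them as filled points, and *Taf9* (-0.57) lies past the lower line as an open point.

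In the acetyltransferase module of SAGA the leading change was in the mRNA for the enzyme PCAF. By edgeR with TMM factors 3 of 5 members rose (*Kat2b*, *Kat2a* and *Tada3*) and none fell, beside 14.2% of all genes higher and 14.2% lower. The module's median log2 fold change was 0.20. Without WT replicate 1, WT replicate 2, SCA7 replicate 1 or SCA7 replicate 3, *Kat2b* was the only gene of the module called. The summed level of the 5 genes was 221 to 233 CPM in WT and 316 to 320 CPM in SCA7. *Kat2b* made up most of this difference, since the other 4 genes summed to 72.5 to 79.6 CPM in WT and 82.9 to 87.3 CPM in SCA7. With library totals, which raised every gene and called 36.2% of all genes higher, all 5 were called higher and the module's median was 0.39.

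*Kat2b* (ENSMUSG00000000708, chromosome 17 from 53566861 to 53672720) encodes PCAF, an acetyltransferase that alternates with GCN5 in SAGA and ATAC. The window printed for its start held a CCAAT box and neither TAATCC nor TGCTGA. *Kat2b* had 147, 149, 155 and 155 CPM in WT replicates 1 to 4 and 233, 234 and 233 CPM in SCA7 replicates 1 to 3. The groups were far apart, and the SCA7 libraries differed from each other by less than the WT libraries. The WT mean was 151 CPM with an SD of 4.21 (n = 4), and the SCA7 mean was 233 CPM with an SD of 0.421 (n = 3), an FC of 1.54 and a log2 fold change of 0.62 (standard error 0.06, 95% confidence interval 0.50 to 0.74, edgeR adjusted p = 7.5e-06). It stayed called in all 7 fits that left out a library, with log2 fold changes from 0.61 to 0.63. Among the 1964 genes with at least 100 CPM on average in WT, 2.49% were higher past the fold limits.

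*Kat2a* (ENSMUSG00000020918, chromosome 11), which encodes GCN5, rose by less. Its values were 21.5, 22.3, 21.6 and 22.4 CPM in WT and 24.8, 23.7 and 27.6 CPM in SCA7. All SCA7 libraries lay above all WT libraries, with replicate 3 the highest. The log2 fold change was 0.21 (standard error 0.07, 95% confidence interval 0.06 to 0.35, edgeR adjusted p = 0.036), and the call held in 3 of the 7 fits that left out a library. It was lost without WT replicate 1, WT replicate 2, SCA7 replicate 1 or SCA7 replicate 3, with values over the 7 fits from 0.14 to 0.26.

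*Tada3* encodes the adaptor that joins the acetyltransferase to its partners in both complexes. It had 18.4, 19.8, 18.8 and 20.8 CPM in WT and 21.3, 23.0 and 22.7 CPM in SCA7. The groups did not overlap, but the highest WT and the lowest SCA7 library were close. Its log2 fold change of 0.20 (standard error 0.07, 95% confidence interval 0.05 to 0.35, edgeR adjusted p = 0.042) was called in 2 of the 7 fits that left out a library, those without WT replicate 3 or WT replicate 4, with values over the 7 from 0.18 to 0.24.

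The remaining members of the module were *Tada2b*, the adaptor specific to SAGA, and *Sgf29*, whose product binds methylated lysine 4 of histone H3. *Tada2b* had 19.8, 21.5, 18.1 and 21.7 CPM in WT and 22.7, 22.1 and 21.5 CPM in SCA7. *Sgf29* ranged from 13.5 to 16.0 CPM in WT and from 14.1 to 15.9 CPM in SCA7. Both overlapped between the genotypes, with log2 fold changes of 0.12 (standard error 0.07, 95% confidence interval -0.04 to 0.29, edgeR adjusted p = 0.24) and 0.06 (-0.11 to 0.23).

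*Atxn7* mRNA itself did not differ detectably between the genotypes. It had 41.1, 38.4, 33.7 and 43.7 CPM in WT and 39.9, 38.6 and 34.2 CPM in SCA7. The groups overlapped, and the lowest library of each genotype was its replicate 3. The log2 fold change was -0.06 (standard error 0.09, 95% confidence interval -0.25 to 0.13, edgeR adjusted p = 0.64), and with library totals it was 0.12. The count of a gene does not check the genotype in a knock-in, since WT and expanded alleles are counted alike.

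Around *Atxn7*, the deubiquitinase module with the ATXN7 paralogs had 2 of 8 members called higher and none lower. Over all genes 14.2% were called higher and 14.2% lower. The module's median log2 fold change was 0.20. Summed, the 8 genes had 489 to 514 CPM in WT and 563 to 575 CPM in SCA7. With library totals 7 of the 8, all but *Atxn7*, were called higher beside 36.2% of all genes, and the median was 0.39.

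*Atxn7l3b* (ENSMUSG00000074748, chromosome 10) encodes a cytoplasmic paralog of ATXN7L3 that binds ENY2. It had 207, 220, 228 and 209 CPM in WT and 255, 251 and 258 CPM in SCA7. The SCA7 libraries lay together above all WT libraries. The log2 fold change was 0.24 (standard error 0.06, 95% confidence interval 0.11 to 0.37, edgeR adjusted p = 0.011). The call was lost without SCA7 replicate 1 or SCA7 replicate 3 and held in the other 5 of the 7 fits that left out a library, with values from 0.22 to 0.26.

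*Atxn7l3* (ENSMUSG00000059995, chromosome 11) encodes the subunit that, with ENY2, is needed for the activity of USP22. Its values were 61.5, 65.6, 65.7 and 66.6 CPM in WT and 73.1, 72.0 and 76.4 CPM in SCA7. The genotypes did not overlap. The log2 fold change was 0.19 (standard error 0.05, 95% confidence interval 0.07 to 0.31, edgeR adjusted p = 0.024), called in 2 of the 7 fits that left out a library, those without WT replicate 3 or WT replicate 4, with values over the 7 from 0.16 to 0.21.

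The deubiquitinase *Usp22* had 121, 131, 129 and 137 CPM in WT and 148, 141 and 145 CPM in SCA7. *Usp27x*, an X-linked enzyme that can use the same cofactors, had 2.94, 2.91, 2.96 and 2.62 CPM in WT and 3.38, 3.36 and 3.14 CPM in SCA7. Neither passed the test by edgeR with TMM factors, although in both genes the SCA7 libraries lay above the WT libraries. Their log2 fold changes were 0.16 for *Usp22* (standard error 0.06, 95% confidence interval 0.03 to 0.30, edgeR adjusted p = 0.066) and 0.21 for *Usp27x* (standard error 0.11, 95% confidence interval -0.03 to 0.44, edgeR adjusted p = 0.18). *Usp22* was called higher by the DESeq2 Wald test, without WT replicate 3 or WT replicate 4 and with library totals.

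Both paralogs of *Atxn7* with low counts also missed the threshold by edgeR with TMM factors. *Atxn7l1* had 4.83, 5.13, 3.75 and 4.88 CPM in WT and 5.74, 5.96 and 5.76 CPM in SCA7, without overlap, and its log2 fold change was 0.32 (standard error 0.11, 95% confidence interval 0.08 to 0.57, edgeR adjusted p = 0.051). The DESeq2 Wald test, limma-voom, the fit without a filter and library totals called it higher. *Atxn7l2* had 6.71, 6.25, 5.51 and 7.74 CPM in WT and 7.67, 8.12 and 7.32 CPM in SCA7, with overlap and a log2 fold change of 0.23 (standard error 0.11, 95% confidence interval -0.01 to 0.47, edgeR adjusted p = 0.14). It was called higher without WT replicate 4 and with library totals. *Eny2*, shared by SAGA and the mRNA export complex TREX-2, had 41.1 to 43.9 CPM in WT and 42.4 to 43.2 CPM in SCA7, a log2 fold change of 0.02 (95% confidence interval -0.10 to 0.13).

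**Figure D2:**
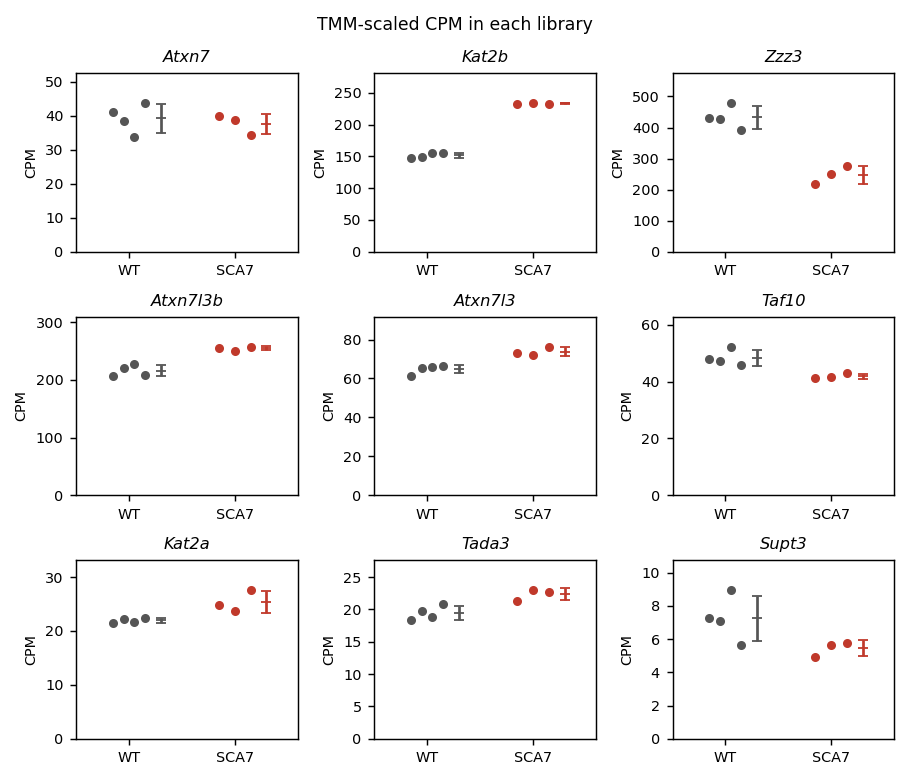
TMM-scaled CPM (y axes, from 0) in each library of *Atxn7* and the 8 members at an adjusted p under 0.05, with 4 WT and 3 SCA7 libraries per panel and the mean with its SD beside the points. The genotypes are apart for *Kat2b* (147 to 155 against 233 to 234 CPM) and *Zzz3* (391 to 479 against 218 to 276 CPM) and overlap for *Atxn7* and *Supt3*.

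In the SAGA core the called members were lower. The core scaffold holds the histone-fold proteins of the complex, several of them shared with TFIID or paralogous to TFIID subunits. *Taf10* and *Supt3* fell and no core gene rose, beside 14.2% of all genes called lower and 14.2% higher. Of the 9, 7 had a log2 fold change below 0, beside 10561 of all 20128 genes tested, and the median was -0.05. With library totals no core gene was called lower, *Tada1* and *Supt7l* were called higher and the median was 0.14, beside 0.17 for all genes under that scaling.

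*Taf10* (ENSMUSG00000043866, chromosome 7) encodes a histone-fold subunit of both SAGA and TFIID. It had 47.9, 47.4, 52.4 and 45.8 CPM in WT and 41.2, 41.5 and 43.0 CPM in SCA7. The SCA7 libraries lay close together below all WT libraries. The log2 fold change was -0.21 (standard error 0.06, 95% confidence interval -0.34 to -0.07, edgeR adjusted p = 0.025), and with library totals it was -0.01. Leaving out any SCA7 library ended the call and leaving out a WT library did not, with values from -0.23 to -0.17. The fit without a filter and the fit with library totals also ended the call. Of the exon bases of *Taf10*, 45.9% overlap *Ilk* on the opposite strand, and the strand option of the counting is not given in the sources used here.

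*Supt3* (ENSMUSG00000038954, chromosome 17) encodes a histone-fold protein that takes part in delivering TBP. It had 7.29, 7.10, 8.95 and 5.66 CPM in WT and 4.92, 5.65 and 5.79 CPM in SCA7. The genotypes overlapped, since WT replicate 4 was below SCA7 replicate 3. The log2 fold change was -0.41 (standard error 0.14, 95% confidence interval -0.70 to -0.11, edgeR adjusted p = 0.044). The call held only in the fit without WT replicate 4 of the 7 that left out a library, with values from -0.51 to -0.29, and with library totals the value was -0.21 (edgeR adjusted p = 0.19). With limma-voom *Supt3* was not called.

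*Taf9*, another histone-fold subunit shared with TFIID, had the lowest counts of all members, 284 over the 7 libraries. It had 0.803, 0.545, 0.563 and 0.811 CPM in WT and 0.406, 0.504 and 0.457 CPM in SCA7, without overlap, and missed the threshold at -0.57 on the log2 scale (95% confidence interval -1.05 to -0.09, edgeR adjusted p = 0.074). Its level is uncertain because 73.8% of its exon bases are shared with *Ak6* on the same strand. *Supt20*, a scaffold subunit, had 39.3 to 44.2 CPM in WT and 35.8 to 38.9 CPM in SCA7, a log2 fold change of -0.16 (edgeR adjusted p = 0.064). *Supt20* was called lower without WT replicate 3, and with library totals its value was 0.02.

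The other core genes overlapped between the genotypes and were not called by edgeR with TMM factors. *Supt7l* was called higher without WT replicate 4. *Tada1* had 34.0 to 39.6 CPM in WT and 39.5 to 40.2 CPM in SCA7, and *Supt7l*, a scaffold subunit, had 27.5 to 37.0 and 33.6 to 35.3 CPM, with log2 fold changes of 0.11 and 0.14. *Taf12*, a histone-fold subunit, had 24.1 to 29.3 CPM in WT and 24.9 to 26.4 CPM in SCA7, a log2 fold change of -0.03. The SCA7 libraries of all 3 lay within a narrower range than the WT libraries. *Taf5l*, the SAGA paralog of *Taf5*, had 22.5, 24.8, 22.9 and 23.8 CPM in WT and 23.4, 23.0 and 23.5 CPM in SCA7. *Taf6l*, the SAGA paralog of *Taf6*, had 26.7, 26.5, 29.7 and 26.6 CPM in WT and 26.1, 25.8 and 27.3 CPM in SCA7. The log2 fold changes of this pair were -0.01 (standard error 0.06, 95% confidence interval -0.15 to 0.12, edgeR adjusted p = 0.90) and -0.05 (standard error 0.06, -0.19 to 0.09, edgeR adjusted p = 0.60).

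None of the 3 subunits that bind activators or are shared with the spliceosome was called by edgeR with TMM factors, and library totals called *Sf3b3* higher. *Trrap*, the large scaffold that activators contact and that TIP60 also contains, had 99.3 to 121 CPM in WT and 108 to 113 CPM in SCA7, with a log2 fold change of 0.00 (95% confidence interval -0.15 to 0.15). *Sf3b3*, shared with the U2 snRNP, had 124 to 135 CPM in WT and 132 to 142 CPM in SCA7 (log2 fold change 0.09). *Sf3b5*, shared likewise, had 29.0 to 38.0 CPM in WT and 28.6 to 33.2 CPM in SCA7 (-0.07). The genotypes overlapped for all 3.

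In ATAC, *Zzz3* was the gene called, beside 14.2% of all genes called lower. It carried most of the counts of the 7 genes. It fell with an FC of 0.572, while the other 6 members summed to 185 to 197 CPM in WT and 190 to 195 CPM in SCA7. *Zzz3* held 67.8% to 70.9% of the counts on the 7 ATAC genes in WT and 53.5% to 59.0% in SCA7. Since this share is formed within a library, it does not depend on the scaling between libraries.

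*Zzz3* (ENSMUSG00000039068, chromosome 3 from 152395473 to 152462826) encodes a ZZ-type zinc finger protein that reads the tail of histone H3. The window printed for its start held a GC box. *Zzz3* had 432, 428, 479 and 391 CPM in WT and 218, 249 and 276 CPM in SCA7. The lowest WT library was far above the highest SCA7 library. The WT mean was 433 CPM with an SD of 36.2 (n = 4), and the SCA7 mean was 247 CPM with an SD of 29.0 (n = 3), an FC of 0.572 and a log2 fold change of -0.81 (standard error 0.09, 95% confidence interval -1.01 to -0.61, edgeR adjusted p = 5.3e-05). All 7 fits that left out a library called it, with log2 fold changes from -0.89 to -0.72, and with library totals the value was -0.61. Among genes with at least 100 CPM on average in WT, 9.73% were lower past the fold limits.

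The rest of ATAC was not called by edgeR with TMM factors. *Tada2a*, the adaptor specific to ATAC, had 26.9, 28.8, 27.7 and 25.9 CPM in WT and 23.6, 26.4 and 25.9 CPM in SCA7, a log2 fold change of -0.11 (standard error 0.07, 95% confidence interval -0.25 to 0.03, edgeR adjusted p = 0.24). *Kat14*, the other acetyltransferase of ATAC, had 20.5, 23.1, 19.7 and 23.3 CPM in WT and 24.4, 26.4 and 24.3 CPM in SCA7, without overlap, a log2 fold change of 0.21 (edgeR adjusted p = 0.055). It was called higher by the DESeq2 Wald test, without the filter, without WT replicate 4 and with library totals, which also called *Wdr5* and *Dr1* higher. *Yeats2*, a reader of acylated histone H3, had 25.7 to 27.9 CPM in WT and 25.0 to 26.4 CPM in SCA7, and *Wdr5*, which is shared with the COMPASS methyltransferases, had 35.2 to 38.0 and 36.6 to 37.2 CPM. *Mbip* had 16.9 to 21.0 CPM in WT and 16.4 to 19.2 CPM in SCA7, and *Dr1*, a histone-fold protein that also represses TBP, had 55.7 to 67.1 and 59.4 to 62.6 CPM. These 4 genes overlapped between the genotypes, with log2 fold changes between -0.11 and 0.03. On the same strand, *Pet117* shares 14.7% of the exon bases of *Kat14*.

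**Figure D3:**
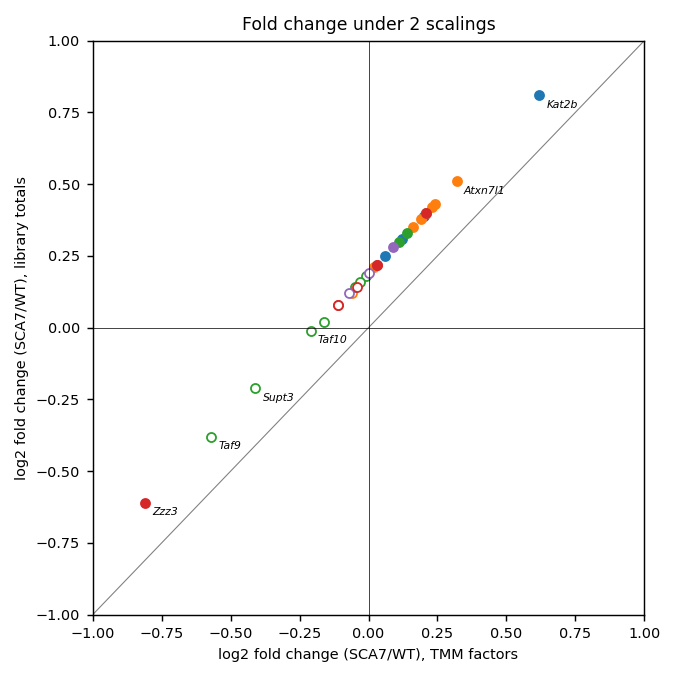
Log2 fold change (SCA7/WT) of each member with TMM factors (x axis) and with library totals (y axis), where the line marks equal values, colours mark the modules as in the plot of fold changes and filled points passed an adjusted p of 0.05 with library totals. All points lie above the line, 18 members are called higher on the y axis, and *Zzz3* (-0.81 and -0.61) is the member called lower under both scalings.

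The balance between paralogous subunits was then compared as a ratio of counts per length within each library, which removes the scaling between libraries. In all, 7 ratios were compared by two-sided exact permutation of the genotype over the 35 possible assignments, where the smallest possible p is 0.0286, with Benjamini-Hochberg adjustment over the 7. In 3 of them all SCA7 libraries lay on one side of all WT libraries, which makes 0.0667 the smallest adjusted p. None could pass at 0.05, since at least 5 of the 7 ratios would have had to be fully apart.

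Per median transcript length, the *Kat2b*/*Kat2a* ratio was 46.3, 45.1, 48.5 and 46.7 in WT and 63.4, 66.7 and 57.2 in SCA7. Every SCA7 library was above every WT library. The log2 difference was 0.42 (exact permutation p = 0.0286, adjusted p = 0.0667). In counts, *Kat2b* made up 87.0% to 87.8% of the pair in WT and 89.4% to 90.8% in SCA7. The size of the ratio rests on the length used, because the median over the 7 annotated transcripts of *Kat2b* is 450 nt against 4653 nt for its longest coding transcript. With the longest coding transcripts the geometric means were 4.51 in WT and 6.03 in SCA7, and with the union of exons 4.93 and 6.58, while the log2 difference stayed at 0.42.

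The ratio of *Atxn7* to the sum of *Atxn7l1* and *Atxn7l2* moved the other way. It was 10.2, 9.64, 10.4 and 9.94 in WT and 8.53, 7.86 and 7.48 in SCA7. No SCA7 library reached the lowest WT library. The log2 difference was -0.34 (exact permutation p = 0.0286, adjusted p = 0.0667). The size again rests on the length, with geometric means of 1.66 in WT and 1.31 in SCA7 with the longest coding transcripts and 2.76 and 2.2 with the union of exons. In counts, *Atxn7* made up 77.1% to 78.4% of the 3 genes in WT and 72.4% to 74.9% in SCA7.

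*Taf5l*, in SAGA, was compared with *Taf5*, in TFIID. The ratio was 1.44, 1.61, 1.31 and 1.53 in WT and 1.87, 1.83 and 1.93 in SCA7, a log2 difference of 0.36 (exact permutation p = 0.0286, adjusted p = 0.0667). With the longest coding transcripts the geometric means were 0.894 in WT and 1.15 in SCA7, and with the union of exons 0.745 and 0.954, so which of the pair is higher depends on the length. The genotypes did not overlap, and the value of the TFIID member itself was lower, with 28.8 CPM on average in WT and 22.3 CPM in SCA7.

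The other 4 ratios overlapped between the genotypes. The log2 differences were 0.24 for *Tada2b*/*Tada2a* (exact permutation p = 0.114), -0.04 for *Usp22*/*Usp27x* (exact permutation p = 0.771), -0.05 for *Atxn7l3*/*Atxn7l3b* (exact permutation p = 0.143) and -0.09 for *Taf6l*/*Taf6* (exact permutation p = 0.229). Adjusted p-values of these 4 were 0.2 or more.

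**Figure D4:**
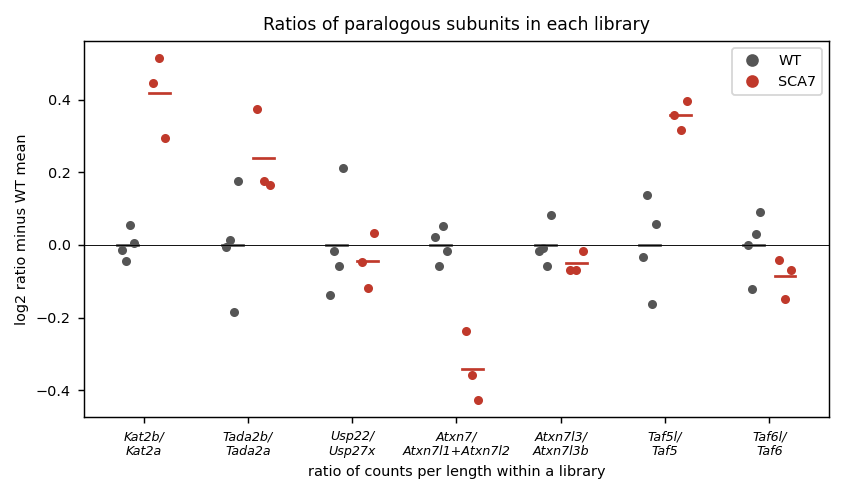
Log2 ratio of counts per length within each library (y axis), minus the WT mean, for 7 ratios of paralogous subunits (x axis), with points for the 4 WT and 3 SCA7 libraries and lines for the group means. The genotypes are apart for *Kat2b*/*Kat2a* (0.42), *Atxn7*/(*Atxn7l1* + *Atxn7l2*) (-0.34) and *Taf5l*/*Taf5* (0.36).

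Levels of the members were compared with each other per length, as reads per kilobase (RPK, counts over the DESeq2 size factor and the length in kb). With the median transcript length, the measure of the study, the members' median in WT was 1960 RPK. With the longest coding transcript it was 736 RPK and with the union of exons 458 RPK. The same 4 genes led with each length, *Kat2b*, *Zzz3*, *Usp22* and *Atxn7l3b*, but not in the same order.

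Per longest coding transcript, *Atxn7l3b* had 4170 ± 187 RPK, *Zzz3* 3930 ± 323 RPK, *Kat2b* 2250 ± 60.0 RPK and *Usp22* 2010 ± 109 RPK in WT (SD, n = 4). The libraries of *Atxn7l3b* and *Zzz3* overlapped, as did those of *Usp22* and *Sf3b3* (1980 ± 78.7 RPK), whereas *Kat2b* stood apart from its neighbours on both sides. At the low end were *Taf9* with 23.9 ± 5.12 RPK, *Usp27x* with 46.1 ± 2.61 RPK and *Atxn7l1* with 90.5 ± 12.1 RPK. Of the 31 pairs of neighbours in this order, 11 did not overlap between WT libraries. *Atxn7* itself had 395 ± 43.1 RPK.

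In SCA7 retina *Kat2b* lay above *Zzz3* on this measure. *Kat2b* reached 3490 ± 13.6 RPK and *Zzz3* had 2270 ± 270 RPK (SD, n = 3) per longest coding transcript, level with *Usp22* (2270 ± 68.3 RPK). With the union of exons the order of *Kat2b* and *Zzz3* also changed, from 2150 ± 57.4 against 2600 ± 214 RPK in WT to 3340 ± 13.0 against 1500 ± 178 RPK in SCA7, where *Usp22* had 2060 ± 62.0 RPK. With the median transcript length *Kat2b* was above *Zzz3* in both genotypes (23200 against 11600 RPK in WT).

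**Figure D5:**
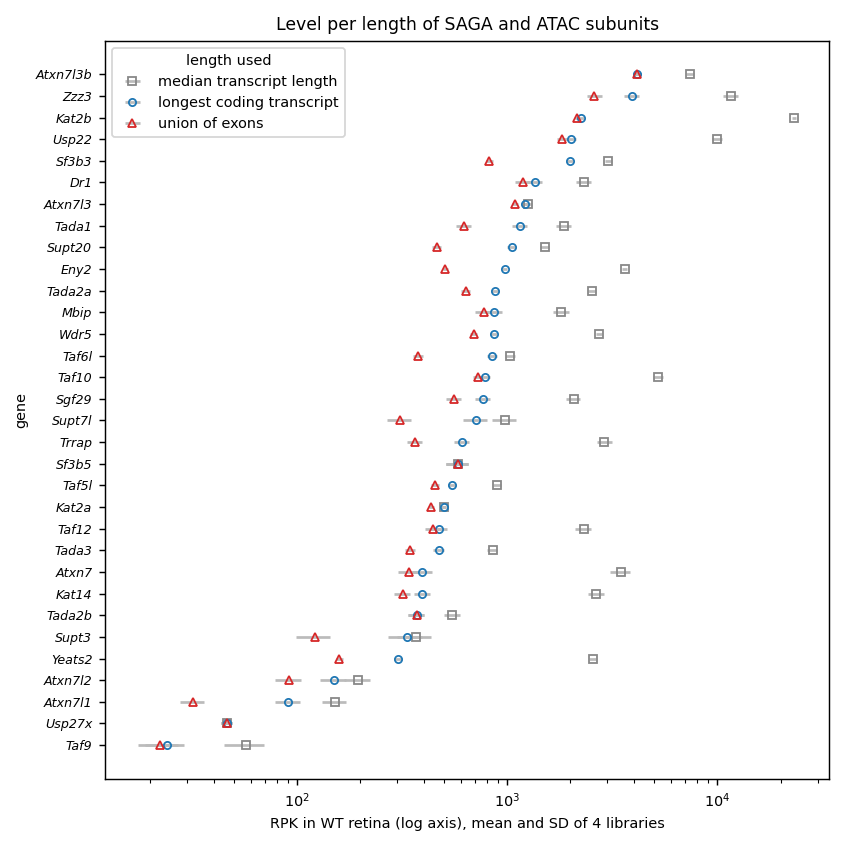
Level per length (RPK, log x axis, mean and SD of the 4 WT libraries) of the 32 members (y axis), with squares for the median transcript length, circles for the longest coding transcript and triangles for the union of exons. Members with many short annotated transcripts are far higher by the first length, such as *Kat2b* (23200 against 2250 RPK by the longest coding transcript).

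Genes that share partners with the members were described next, in lists of further subunits and related complexes. By edgeR with TMM factors, 14.2% of all genes were called lower and 14.2% higher. Counts with library totals are given beside the main ones, and under that scaling 7.43% of all genes were called lower and 36.2% higher. Of 6 further SAGA and ATAC subunits, 4 were higher, 1 was lower and the median log2 fold change was 0.22. With library totals 5 were higher and 0 lower. Leaving out a library gave 1 to 4 higher, with 1 without SCA7 replicate 2 and 2 without SCA7 replicate 3. The lower gene, *Chrac1*, was called in 2 of these 7 fits, those without WT replicate 4 or SCA7 replicate 2. *Taf9b*, the paralog of *Taf9* in SAGA, had 9.86, 10.7, 11.1 and 9.77 CPM in WT and 15.3, 15.2 and 15.3 CPM in SCA7. Its libraries were apart, and it rose past the fold limits by 0.56 on the log2 scale (standard error 0.07, edgeR adjusted p = 1.4e-04). *Usp51*, an enzyme that like *Usp27x* uses ATXN7L3 and ENY2, had 0.826 to 1.09 CPM in WT and 1.15 to 1.63 CPM in SCA7, a log2 fold change of 0.51 (edgeR adjusted p = 0.048) that was called in 1 of the 7 fits that left out a library.

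Among 12 TFIID subunits outside SAGA, 4 were lower and 1 was higher, with a median of -0.03, and these counts were the same in all 7 fits that left out a library. With library totals 3 were lower and 4 higher. *Taf4b*, a variant subunit, had 28.4 to 34.4 CPM in WT and 14.4 to 17.1 CPM in SCA7, a log2 fold change of -1.01 (standard error 0.08, edgeR adjusted p = 4e-06). *Taf1*, the largest subunit, had 84.7 to 98.9 CPM in WT and 122 to 128 CPM in SCA7, a log2 fold change of 0.43 (standard error 0.06, edgeR adjusted p = 3.6e-04). The groups did not overlap for either gene.

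The other complexes held no gene past the fold limits by edgeR with TMM factors, except 1 COMPASS gene, lower, without WT replicate 3. With library totals 1 gene was higher past the limits in each of TIP60, SF3B and TREX-2. In TIP60, which shares TRRAP, 1 of 17 was lower (*Mbtd1*, log2 fold change -0.27) and 1 was higher (*Dmap1*, 0.19), with a median of -0.01. Leaving out a library gave 0 to 2 lower (0 without SCA7 replicate 1 or SCA7 replicate 2, 2 without WT replicate 3) and 0 to 2 higher (0 without WT replicate 1, WT replicate 2, SCA7 replicate 1 or SCA7 replicate 2, and 2 without WT replicate 4). With library totals 0 were lower and 9 higher. None of 5 SF3B genes was called by edgeR at an adjusted p under 0.05, and 1 was under 0.05 unadjusted. The DESeq2 Wald test, no filter and the fit without WT replicate 2 each called 1 higher, and library totals called 4 higher. *Sf3b4* (log2 fold change 0.25) and *Sf3b2* (0.11) had the smallest p-values of that list. In TREX-2, which shares ENY2, 1 of 5 was higher (*Mcm3ap*, 0.27), *Pcid2* came next with 0.10, and library totals called 4 higher.

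Of 9 COMPASS genes, which share WDR5, 3 were lower with a median of -0.22, among them the histone H3 lysine 4 methyltransferase *Kmt2c* (200 to 234 CPM in WT and 158 to 164 CPM in SCA7, log2 fold change -0.45, edgeR adjusted p = 4.6e-04) and *Dpy30* (-0.32). This count was 1 without any of WT replicate 1, WT replicate 2 or the 3 SCA7 replicates, 4 without WT replicate 3, and 1 with limma-voom or library totals. *Kmt2c* was called in all 7 fits that left out a library and *Dpy30* in 2. The partner of DR1, *Drap1*, had a log2 fold change of 0.02. Among 7 other lysine acetyltransferases 2 were lower, *Ep300* (-0.28, edgeR adjusted p = 0.0027) and *Kat6b* (-0.32, edgeR adjusted p = 0.011), with a median of -0.01. Without SCA7 replicate 1 the count was 1, and with library totals 0 were lower and 4 higher. Of 8 H2B ubiquitin ligases and proteases tested, 2 were lower, the deubiquitinase *Usp16* (-0.30) and the conjugating enzyme *Ube2a* (-0.27), with a median of -0.09. Without SCA7 replicate 1 or SCA7 replicate 2 the count was 1, and with library totals 0 were lower and 3 higher. *Usp44*, the ninth gene of that list, did not pass the filter.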

How the data were processed

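Total RNA, depleted of ribosomal RNA, of 4 WT and 3 SCA7 homozygous knock-in retina samples was sequenced as stranded single-read libraries by the authors, who mapped them to mm10 with TopHat2 2.0.14 and Bowtie2 2.1.0 (per the labels) and obtained counts for Ensembl genes with HTSeq 0.6.1. They deposited raw counts, without normalization. The HTSeq mode and strand option are not given in the sources used here. Reads of overlapping genes or close paralogs could be lost or split by this step.

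Groups followed the labels. Of 52550 genes, 52403 were named from GENCODE vM21 (GRCm38). Genes passing filterByExpr were fitted with edgeR 4.0.16 (TMM, glmQLFit robust, quasi-likelihood test, R 4.3.3) with genotype alone as factor, and Benjamini-Hochberg adjustment covered all 20128 genes. Ratios were tested by exact permutation. Total counts per library were 56497675 to 96635832, and the precision of a value is its SD between mice or its standard error from the model. The steps were tested on simulated data, with changes set in genes drawn at random and 98 changed genes tested at each size. There edgeR recovered 77.6% of changes of 1 and 43.9% of changes of 0.5 on the log2 scale. Alternatives were DESeq2 1.42.0, limma 3.58.1 (voom), other scalings and filters, a replicate block, *Xist* as covariate, other lengths and leaving out each library.

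The members and lists were chosen with earlier results of these data known. All 32 members are named, with values in every library for *Atxn7*, members called and members in a ratio. Of each related list, genes past the fold limits or else those with the 2 smallest p-values are named.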

Additional observations from a re-analysis of the deposited data

Results flagged for a closer look

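In 32 groups of 4 WT libraries, 1 per member, a library stood apart from the others in 2, and chance flags about 1 in 20 groups. *Taf6l* had 29.7 CPM in WT replicate 3 against 26.5 to 26.7 CPM in the other WT libraries, a gap of 0.934 of the whole range. *Usp27x* had 2.62 CPM in WT replicate 4 against 2.91 to 2.96 CPM, a gap of 0.842 of the whole range. Neither gene was called in any of the 7 fits that left out a library.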

How the results depend on the processing

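*Kat2b* and *Zzz3* were called, past the fold limits and in the same direction under all 15 alternative fits, with log2 fold changes of 0.61 to 0.81 and -0.89 to -0.61. The other calls were less stable. Against 3 members lower and 5 higher, library totals gave 1 and 18, with 8 higher past the fold limits in place of 1, and 94.7% of member calls higher in place of 62.5% (over all genes, 1495 lower and 7296 higher in place of 2852 and 2853). An adjusted p under 0.01 left 1 lower and 1 higher. The DESeq2 Wald test called 8 higher (in addition *Atxn7l1*, *Usp22* and *Kat14*), and the fit with *Xist* as covariate called 10 higher. That covariate says nothing about sex here, since *Xist* had 4 to 19 counts and the Y-linked *Ddx3y* 104 to 115 CPM in all 7 libraries. Leaving out each library gave 1 to 4 lower, 1 to 9 higher and 1 to 2 lower past the fold limits. Without SCA7 replicate 1 or SCA7 replicate 3 only *Zzz3* and *Kat2b* were called, without SCA7 replicate 2 they were called with *Kat2a* and *Atxn7l3b*, without WT replicate 1 or WT replicate 2 with *Taf10* and *Atxn7l3b*, and without WT replicate 3 *Taf9* passed the fold limits. Without WT replicate 4, 9 members were called higher. The cause was not tested. No called member changed sign under any of these alternatives. The median WT level of 1960 RPK became 458 RPK with the union of exons and 736 RPK with the longest coding transcript, a length added after seeing the data, by construction of the unit.

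The replicate numbers were not taken as pairs, since the correlations of deviations between same-numbered libraries were 0.01, 0.197 and 0.079, all positive but not all over 0.1. With so few libraries this check cannot exclude pairing. The labels do not say what the numbers share, although a further number in the titles is close between same-numbered libraries. WT replicates 2 and 3 correlated best with their own number, but WT replicate 1 with SCA7 replicate 2 (0.052), and SCA7 replicates 1 and 3 with WT replicate 4 (0.05 and 0.135). With the replicate number as a block, 3 members were lower and 10 higher (in addition *Atxn7l1*, *Atxn7l2*, *Usp22*, *Supt7l* and *Kat14*), and the *Kat2b*/*Kat2a* difference was 0.42. Of the members, *Taf9* had the fewest counts (284).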
